A study of Homo sapiens with 12 samples.

Results

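The genes described here encode 10 enzymes of de novo sphingolipid synthesis, namely *SPTLC1*, *SPTLC2*, *SPTLC3*, *KDSR*, *CERS2*, *CERS5*, *CERS6*, *DEGS1*, *SGMS1* and *UGCG*. They were taken by gene name from the raw count tables of both cell lines and joined by Ensembl identifier. The rule itself uses no measured value, but the set was chosen with earlier results of these data known. All 10 were present in both tables, among 30984 genes listed for KYSE30 and 78691 for U138MG, of which 30358 were shared, and all 10 passed the filter on low counts. Poly-A libraries were made from KYSE30, which is a line of esophageal squamous cell carcinoma (ESCC), and from cells labelled U138MG, a glioblastoma (GBM) line. Each line was exposed for 48 h to 100 nM PTDSS1i, the small-molecule inhibitor DS55980254 of phosphatidylserine synthase 1 (PTDSS1), or to DMSO, its vehicle. There were 3 parallel cultures in each of the 4 groups, 12 libraries in all. Both lines are wild type in the labels, which put KYSE30 in the first batch and U138MG in the second, so line, batch and count table cannot be told apart. The labels describe the replicates as biological, and each group is a single cultured line at a single dose and time.

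De novo synthesis begins on the endoplasmic reticulum, where serine palmitoyltransferase (SPT) condenses L-serine with palmitoyl-CoA. L-serine is also the head group that PTDSS1 and PTDSS2 place on phosphatidylserine. KDSR reduces the product of SPT, ceramide synthases attach a fatty acid, and DEGS1 inserts the double bond that turns dihydroceramide into ceramide. In the Golgi, SGMS1 turns ceramide into sphingomyelin and UGCG turns it into glucosylceramide, the first step towards most complex glycosphingolipids.

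The labels were checked against lineage markers before the enzymes were compared. In the KYSE30 libraries the epithelial genes *CDH1* and *EPCAM* averaged 495 and 269.5 normalized CPM in DMSO, and the squamous keratin *KRT5* had at most 3 counts in any library. *SFN* averaged 193, *TP63* 94.6, *KRT15* 39.8, *DSG3* 16.8, *KRT6A* 5.05 and *KRT14* 0.343 normalized CPM in these DMSO libraries. The basal keratins *KRT5* and *KRT14* were thus very low in the line labelled as squamous, and KYSE30 below is also the name on the label. The libraries labelled U138MG carried squamous epithelial markers, with *KRT5* at 1397, *KRT15* at 4622, *TP63* at 262 and *CDH1* at 440.1 normalized CPM in DMSO, although the basal keratin *KRT14* had at most 7 counts in any library. The mesenchymal filament gene *VIM* averaged 0.195 normalized CPM there, *GFAP* averaged 2.24, and *OLIG2* and *S100B* were at 0 counts in all 6 libraries. Other members of the glial or mesenchymal list were present, with *SPARC* at 677, *FN1* at 72.0, *COL1A1* at 51.8 and *SOX2* at 37.0 normalized CPM in DMSO, and they carried most of its sum. In KYSE30 DMSO libraries *FN1* and *SOX2* were higher than this, at 94.5 and 95.9 normalized CPM. *SPARC* and *COL1A1* were lower there, at 4.38 and 10.3. The high squamous markers, with *VIM*, *OLIG2* and *S100B* at or near 0, go against the label, so U138MG below is the name on the label and not a checked cell type. Over the 9 squamous markers, summed CPM lay between 1140 and 1170 in KYSE30 DMSO libraries and between 1700 and 1710 in PTDSS1i libraries. In U138MG the same sum lay between 7190 and 8010 in DMSO and between 2830 and 2970 in PTDSS1i. Single squamous markers did not all follow these sums. In U138MG *KRT15* (4622 to 481 normalized CPM), *KRT5* (1397 to 554), *TP63* and *CDH1* fell. *SFN* (268 to 1120 normalized CPM), *EPCAM*, *DSG3* and *KRT6A* rose there. In KYSE30 *TP63* fell (94.6 to 70.6 normalized CPM) while the sum rose. The sum of the glial or mesenchymal markers moved from 202–247 to 176–177 CPM in KYSE30, where 8 of the 10 markers analysed had more than 3 counts in at least 1 library (*OLIG2* and *S100B* were not analysed in that line). In U138MG it moved from 885–913 to 457–471 CPM, where 9 of 12 did so. Against this sum, *VIM* (3.86 to 25.5 normalized CPM), *COL1A1* and *CDH2* rose in KYSE30, and *COL1A1* and *NES* rose in U138MG. Of the 9 squamous markers, 8 passed 3 counts in KYSE30 and 9 in U138MG. The part of these marker shifts in the results below was not tested. Library totals ranged from 18800932 to 26514658 counts, and 3 counts, taken as the floor of detection, corresponded to at most 0.160 CPM. Every pair of replicates differed beyond sampling noise.

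The promoter sequences of 3 enzymes that rose in both lines are shown to place each gene at its start, with matches to common promoter motifs in capitals. The sequences are RefSeq promoters (GRCh38.p14), each given 5′ to 3′ on the strand of its gene. Bases that fall inside an annotated exon were left out. Capitals mark GGGCGG, the core of the GC box bound by SP1, and CCAAT, the box bound by NF-Y, on either strand.
*SPTLC1*, chr9:92115414-92115663, minus strand: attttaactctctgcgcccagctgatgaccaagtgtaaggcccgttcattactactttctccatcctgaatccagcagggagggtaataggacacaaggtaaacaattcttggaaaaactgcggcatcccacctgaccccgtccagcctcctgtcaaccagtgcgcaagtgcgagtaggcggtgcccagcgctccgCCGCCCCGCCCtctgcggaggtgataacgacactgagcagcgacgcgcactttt
*SPTLC2*, chr14:77616774-77616887, minus strand: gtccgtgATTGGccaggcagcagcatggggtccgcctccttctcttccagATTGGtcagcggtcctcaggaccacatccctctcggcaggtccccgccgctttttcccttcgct
*UGCG*, chr9:111896564-111896765, plus strand: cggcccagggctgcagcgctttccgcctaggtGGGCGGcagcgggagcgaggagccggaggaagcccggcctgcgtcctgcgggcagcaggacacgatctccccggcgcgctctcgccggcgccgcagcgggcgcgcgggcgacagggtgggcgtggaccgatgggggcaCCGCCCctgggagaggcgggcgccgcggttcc
Promoter sequences matched 8 of the 10 enzymes by symbol, and *SPTLC3* and *CERS2* had no entry. Over the 250 bases before the start, GGGCGG was found in 8 of these 8 promoters and in 42.3% of all 27305 promoters. The GC content of these bases was 56.4% for *SPTLC1* and 68.4% to 78.4% for the others, against a median of 58.0% over all promoters. The share of 42.3% was not matched for GC content. CCAAT was found before *SPTLC2* and *CERS6* only, 2 of 8, against 33.0% of all promoters. CACGTG, the E-box, was in none of the 8 and in 6.49% of all promoters, and TGATGNAA, a core of the ATF4 response element, was in none of the 8 and in 3.19%. All motifs were searched on both strands, and none of the 4 contains another. GGGCGG and CCAAT matches were counted by letters alone and are not evidence of binding.

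Transcript levels of the 10 enzymes were compared per kilobase of exon, on the scale of normalized CPM per kb. In KYSE30 DMSO cultures the very-long-chain ceramide synthase gene *CERS2* was highest, at 41.7 ± 0.789 normalized CPM per kb (SD, n = 3). *SPTLC1* at 30.6 ± 1.52 and *UGCG* at 29.9 ± 1.92 normalized CPM per kb followed, and their libraries overlapped. *DEGS1*, *CERS6*, *SPTLC2*, *CERS5*, *KDSR*, *SGMS1* and *SPTLC3* came next in that order, down to 1.98 ± 0.300 normalized CPM per kb, with no overlap between neighbours. In U138MG DMSO cultures *CERS2* was again highest, at 25.8 ± 0.185 normalized CPM per kb, followed by *DEGS1* at 22.6 ± 0.887. *UGCG*, *SPTLC1*, *CERS6* and *SPTLC2* lay between 13.6 and 15.4 normalized CPM per kb, and each overlapped its neighbour in the order. *CERS5*, *KDSR* and *SGMS1* were lower, and *SPTLC3* was lowest at 0.349 ± 0.0661 normalized CPM per kb. *SPTLC3* was thus the least abundant of the 10 transcripts per kb in both lines, each normalized within its own table.

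After PTDSS1i treatment, *SPTLC1*, *SPTLC2*, *KDSR* and *UGCG* rose in both lines, with log2 fold changes from 0.30 to 0.92, and *SPTLC3* fell in both. In KYSE30, *CERS6* rose as well, and *CERS2*, *CERS5*, *DEGS1* and *SGMS1* were not called. In U138MG, *CERS2* and *CERS5* rose as well, *CERS6* fell, and *DEGS1* and *SGMS1* were not called. A gene was called where edgeR's quasi-likelihood test gave an adjusted p under 0.05 over all genes tested. The counts of 6 of 10 in KYSE30 and 8 of 10 in U138MG stood against 62.0% and 67.5% of all tested genes, so the share of enzymes called was near the background. The share called higher, 5 of 10 in KYSE30 and 6 of 10 in U138MG, stood against 30.1% and 33.9%, and the share called lower, 1 and 2 of 10, against 32.0% and 33.6%. The median log2 fold change of the 10 enzymes was 0.20 in KYSE30 and 0.33 in U138MG, where that of all tested genes was -0.03 in both lines. PTDSS1i and DMSO libraries did not overlap for 7 enzymes in KYSE30 and 8 in U138MG, against 66.3% and 71.4% of tested genes. With a log2 fold change beyond 1 required as well, no enzyme was called in KYSE30, where 13.4% of genes were, and only *SPTLC3* in U138MG, where 19.8% were. Scaling by library size alone lowered the median of all genes (shift -0.105 in log2 in KYSE30 and -0.146 in U138MG), and upper-quartile scaling moved it by -0.0238 and -0.146, so fold changes smaller than these depend on the scaling. In bulk RNA, fewer cells that express a gene and less RNA per cell cannot be told apart.

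**Figure D1:**
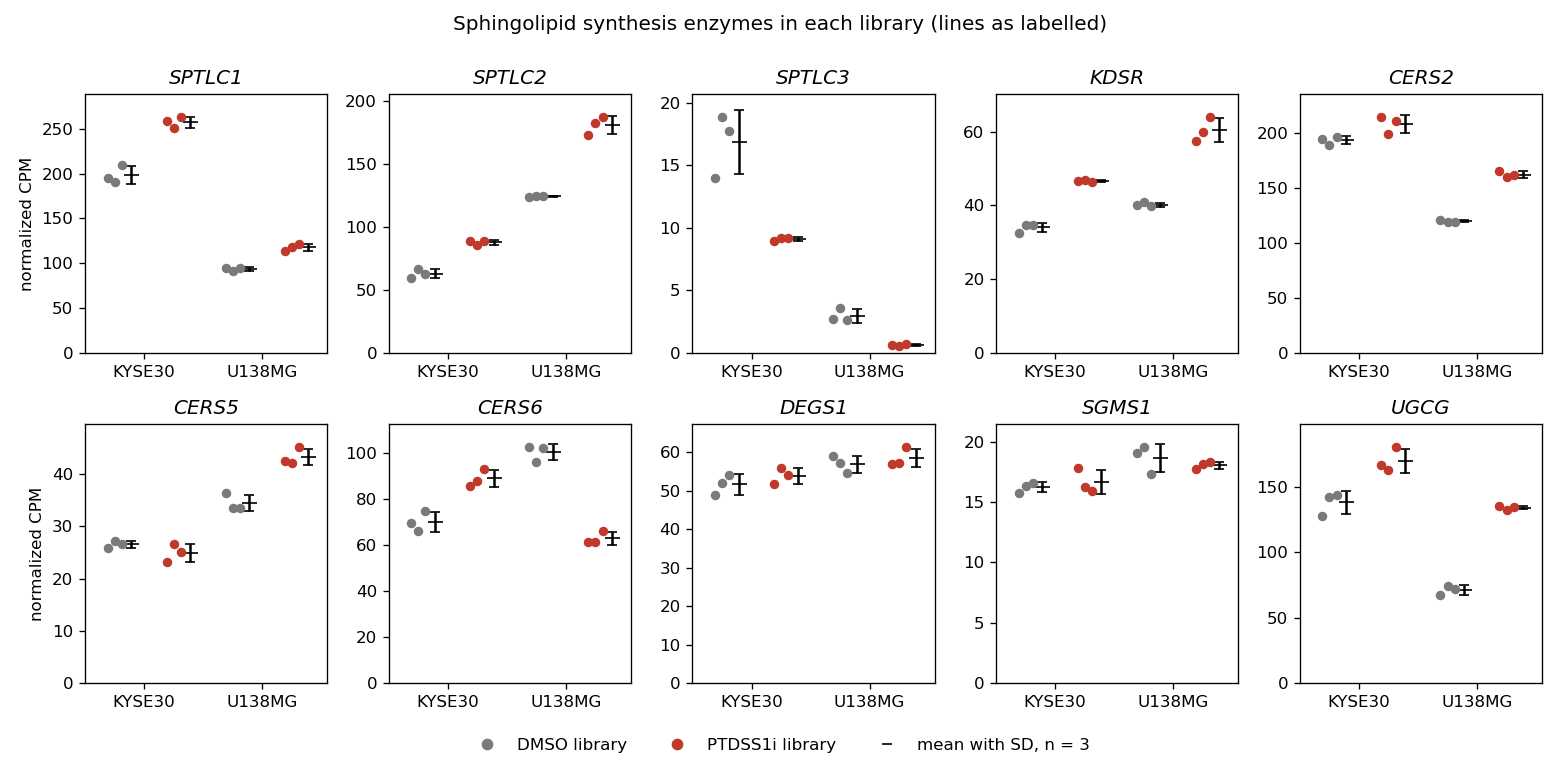
Normalized CPM (linear axis from 0) of the 10 enzymes in every library, with DMSO in grey and PTDSS1i in red for each labelled line, and the mean with SD (n = 3) beside each group. *SPTLC3* is lower and *SPTLC1*, *SPTLC2*, *KDSR* and *UGCG* are higher in all PTDSS1i libraries of both lines, whereas *CERS6* lies above DMSO in KYSE30 and below it in U138MG.

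*SPTLC1* (ENSG00000090054, chr9:92000087-92115384, minus strand, GRCh38) encodes the subunit shared by all SPT complexes. In KYSE30 it had 195, 191 and 209 normalized CPM in DMSO replicates 1 to 3 and 258, 251 and 263 in the PTDSS1i replicates. In U138MG it had 94.9, 91.2 and 94.8 normalized CPM in DMSO and 114, 118 and 122 in PTDSS1i. All PTDSS1i libraries were above all DMSO libraries in each line. The log2 fold change was 0.38 (SE 0.0516, adjusted p = 1.73e-06, edgeR) in KYSE30 and 0.33 (SE 0.0395, adjusted p = 1.94e-08, edgeR) in U138MG. The difference between the responses, U138MG minus KYSE30 in a joint fit with its own scaling, was -0.08 (95% confidence interval -0.21 to 0.05) and was not called. With upper-quartile scaling this difference was called, at -0.19 (adjusted p = 0.0102, edgeR).

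*SPTLC2* (ENSG00000100596, chr14:77505997-77616773, minus strand, GRCh38) encodes the widely expressed catalytic subunit, which pairs with SPTLC1. In KYSE30 its DMSO libraries had 59.3, 66.8 and 62.8 normalized CPM and its PTDSS1i libraries 88.9, 85.8 and 88.9. In U138MG the DMSO libraries had 124, 125 and 125 normalized CPM and the PTDSS1i libraries 173, 183 and 187. The groups did not overlap in either line. *SPTLC2* rose with a log2 fold change of 0.48 (SE 0.0563, adjusted p = 1.72e-07, edgeR) in KYSE30 and 0.54 (SE 0.0370, adjusted p = 2.12e-13, edgeR) in U138MG. The difference between the responses was 0.02 on the log2 scale (95% confidence interval -0.12 to 0.15), and its sign changed with upper-quartile scaling and with some libraries left out.

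*SPTLC3* (ENSG00000172296, chr20:13008979-13169103, plus strand, GRCh38) encodes the alternative catalytic subunit, which is restricted to some tissues and allows SPT to form sphingoid bases of atypical length. In KYSE30 it had 14.0, 18.8 and 17.7 normalized CPM in DMSO and 8.94, 9.22 and 9.15 in PTDSS1i. In U138MG it rested on few reads, 54, 85 and 59 counts in DMSO and 15, 12 and 18 counts in PTDSS1i. The highest PTDSS1i library lay below the lowest DMSO library in both lines. *SPTLC3* fell from 16.8 ± 2.55 to 9.10 ± 0.145 normalized CPM (mean ± SD, n = 3) in KYSE30, a log2 fold change of -0.89 (SE 0.106, adjusted p = 2.48e-07, edgeR). In U138MG it fell from 2.98 ± 0.563 to 0.642 ± 0.0841 normalized CPM (mean ± SD, n = 3), a log2 fold change of -2.20 (SE 0.272, adjusted p = 4.28e-08, edgeR). This was the only one of the 10 enzymes past a log2 fold change of 1 in either line. The fall was steeper in U138MG, by a log2 difference of -1.35 (SE 0.264, adjusted p = 6.27e-05, edgeR).

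The balance of the catalytic subunits was then expressed as the share of *SPTLC3* in the summed *SPTLC2* and *SPTLC3* level per kb. In KYSE30 this share was 22.2% ± 1.76 in DMSO and 10.0% ± 0.302 in PTDSS1i (SD, n = 3), with ranges of 20.2–23.2% and 9.74–10.3%. In U138MG it was 2.50% ± 0.452 in DMSO and 0.379% ± 0.0493 in PTDSS1i, with ranges of 2.20–3.02% and 0.323–0.410%. The libraries of the treatments did not overlap in either line. The summed catalytic level itself went from 8.86 ± 0.701 to 10.7 ± 0.184 normalized CPM per kb in KYSE30 and from 14.0 ± 0.105 to 19.9 ± 0.796 in U138MG. An exact permutation test of 3 libraries against 3 cannot give a two-sided p under 0.1, so no test is given for these shares.

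*KDSR* (ENSG00000119537, chr18:63327726-63367510, minus strand, GRCh38) encodes 3-ketodihydrosphingosine reductase, the enzyme after SPT. In KYSE30 it had 32.7, 34.7 and 34.8 normalized CPM in DMSO and 46.5, 47.0 and 46.3 in PTDSS1i. The U138MG libraries had 40.0, 40.8 and 39.8 normalized CPM in DMSO and 57.6, 59.9 and 63.9 in PTDSS1i. The groups did not overlap, and *KDSR* rose with a log2 fold change of 0.45 (SE 0.0599, adjusted p = 1.05e-06, edgeR) in KYSE30 and 0.59 (SE 0.0515, adjusted p = 4.38e-11, edgeR) in U138MG. The difference between the responses was not called, at 0.10 (95% confidence interval -0.06 to 0.26), and it was negative with upper-quartile scaling. Of the exon bases of *KDSR*, 1.96% overlap a gene on the opposite strand.

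**Figure D2:**
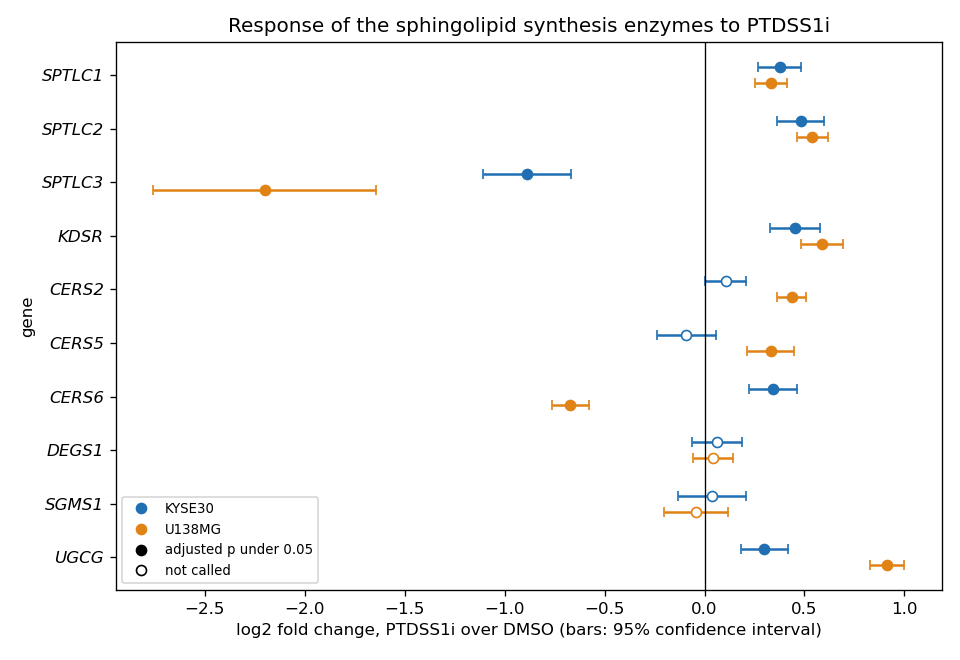
Log2 fold change of PTDSS1i over DMSO for each enzyme (horizontal axis) with its 95% confidence interval, KYSE30 in blue and U138MG in orange, filled where the adjusted p was under 0.05 in edgeR's test. *SPTLC3* reaches -2.20 in U138MG, and *CERS6* lies at 0.34 in KYSE30 and -0.67 in U138MG.

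The ceramide synthases differ in the fatty acid they attach. *CERS6* rose in KYSE30 and fell in U138MG, and *CERS2* and *CERS5* were called only in U138MG, with responses that differed between the lines for all 3. *CERS6* (ENSG00000172292, chr2:168455862-168775137, plus strand, GRCh38), which favours palmitoyl-CoA, had 69.4, 66.2 and 74.6 normalized CPM in KYSE30 DMSO libraries and 85.6, 87.8 and 93.1 in PTDSS1i. In U138MG it had 102, 96.1 and 102 normalized CPM in DMSO and 61.3, 61.2 and 66.1 in PTDSS1i. PTDSS1i libraries were thus all above DMSO in KYSE30 and all below it in U138MG. The log2 fold change was 0.34 (SE 0.0577, adjusted p = 2.51e-05, edgeR) in KYSE30 and -0.67 (SE 0.0444, adjusted p = 9.53e-14, edgeR) in U138MG. The difference between the responses was -1.05 (SE 0.0749, adjusted p = 2.90e-13, edgeR).

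Of the exon bases of *CERS6*, 41.4% (2999 bases) overlap the antisense gene *CERS6-AS1*, and strand use in the counting is not given in the sources used here. *CERS6-AS1* had at most 1 count in any KYSE30 library. In U138MG it went from 35.8 ± 1.42 to 17.2 ± 0.673 normalized CPM (mean ± SD, n = 3), and its log2 fold change was -1.06 (SE 0.0687, adjusted p = 6.54e-14, edgeR). Reads from the shared stretch cannot be assigned to one gene or the other. With the counts of both genes summed, an alternative chosen after the data were seen, *CERS6* kept its call and direction in both lines. The direction of this sum was given by its parts, since *CERS6-AS1* was almost absent in KYSE30 and fell along with *CERS6* in U138MG. The sum therefore cannot show whether the fall in U138MG belongs to *CERS6* itself.

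*CERS2* (ENSG00000143418, chr1:150960583-150975004, minus strand, GRCh38), which attaches very-long-chain fatty acids, had 194, 189.5 and 197 normalized CPM in KYSE30 DMSO libraries and 214, 199 and 211 in PTDSS1i. Although the groups did not overlap, the log2 fold change of 0.11 (SE 0.050, adjusted p = 0.073, edgeR) was not called, with a 95% confidence interval of 0.0014 to 0.21. It was called without DMSO replicate 1 (0.11, adjusted p = 0.041, edgeR) and when both lines were fitted together (0.15, adjusted p = 0.00392, edgeR), and it was 0.00014 with scaling by library size only. In U138MG *CERS2* had 121, 119 and 119.5 normalized CPM in DMSO and 165, 159.7 and 161 in PTDSS1i, with no overlap. It rose there with a log2 fold change of 0.44 (SE 0.0355, adjusted p = 9.31e-12, edgeR), which exceeded the KYSE30 response by 0.29 (SE 0.0606, adjusted p = 0.000144, edgeR). Of its exon bases, 37.2% overlap *SETDB1* or an antisense gene on the opposite strand, and *SETDB1* had log2 fold changes of -0.14 in KYSE30 and -0.31 in U138MG. The antisense gene *CERS2-AS1* had at most 2 counts per library in KYSE30, and in U138MG it averaged 9.87 ± 1.34 in DMSO and 13.5 ± 1.87 in PTDSS1i (normalized CPM, SD of 3 libraries). Its log2 fold change there was 0.46 (adjusted p = 0.00117, edgeR), beside 0.44 for *CERS2*.

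*CERS5* (ENSG00000139624, chr12:50129306-50167533, minus strand, GRCh38), which like CERS6 favours palmitoyl-CoA, had 25.8, 27.2 and 26.6 normalized CPM in KYSE30 DMSO libraries and 23.1, 26.6 and 25.1 in PTDSS1i. These groups overlapped, and the log2 fold change was -0.09 (SE 0.0717, adjusted p = 0.281, edgeR) with a 95% confidence interval of -0.24 to 0.06. Scaled by library size alone it was called lower in KYSE30, at -0.20 (adjusted p = 0.0307, edgeR). In U138MG *CERS5* had 36.3, 33.6 and 33.5 normalized CPM in DMSO and 42.6, 42.1 and 45.1 in PTDSS1i, which did not overlap. It rose there with a log2 fold change of 0.33 (SE 0.0570, adjusted p = 1.00e-05, edgeR), and the difference between the responses was 0.38 (SE 0.0917, adjusted p = 0.000769, edgeR).

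The proportions of these 3 synthases were computed per kb as for the SPT subunits. The sum leaves out *CERS4*, a ceramide synthase gene of the wider lists, so these are not shares of all ceramide synthase transcripts. In U138MG *CERS4* had 13.7 ± 0.377 normalized CPM per kb in DMSO and 12.0 ± 0.529 in PTDSS1i (SD, n = 3). In KYSE30 it had 1.26 ± 0.0806 and 2.18 ± 0.133. In KYSE30 DMSO libraries *CERS2* made up 75.4% ± 0.481, *CERS6* 17.5% ± 0.648 and *CERS5* 7.12% ± 0.309 of their sum (SD, n = 3). After PTDSS1i the share of *CERS6* in KYSE30 was 20.2% ± 0.809 and that of *CERS2* was 73.7% ± 1.27, with overlapping ranges for *CERS2*. In U138MG the share of *CERS6* went from 30.9% ± 0.635 to 17.4% ± 0.630, and that of *CERS2* from 57.7% ± 0.680 to 69.8% ± 0.982, without overlap. The share of *CERS5* in U138MG was 11.4% ± 0.369 in DMSO and 12.8% ± 0.352 in PTDSS1i.

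**Figure D3:**
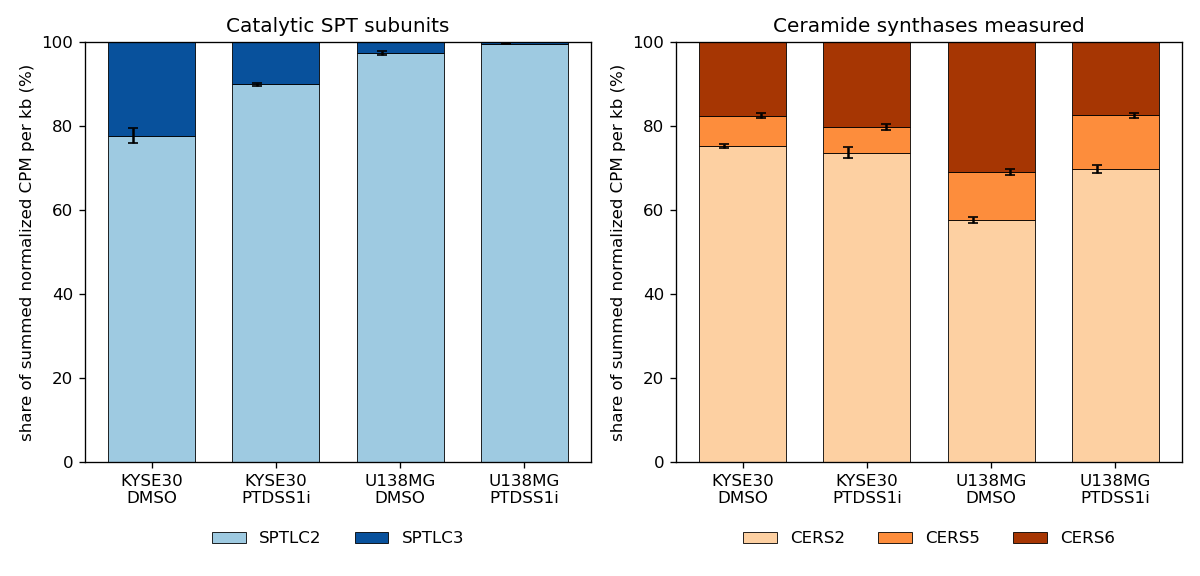
Mean share (%, n = 3) of each paralog in the summed normalized CPM per kb of the catalytic SPT subunits (left) and of the 3 ceramide synthases (right) in the 4 groups, with SD bars at the upper edge of the lowest segment and, on the right, the lower edge of the top segment. *CERS4* is left out of the sum on the right. The *SPTLC3* share goes from 22.2% to 10.0% in KYSE30 and from 2.50% to 0.379% in U138MG. The *CERS6* share in U138MG goes from 30.9% to 17.4%.

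*DEGS1* (ENSG00000143753, chr1:224175756-224193441, plus strand, GRCh38), the dihydroceramide desaturase, was not called in either line. It had 48.8, 51.9 and 54.1 normalized CPM in KYSE30 DMSO libraries and 51.7, 55.8 and 54.1 in PTDSS1i. For U138MG the values were 58.9, 57.2 and 54.5 normalized CPM in DMSO and 56.9, 57.3 and 61.2 in PTDSS1i. The groups overlapped in both lines. Its log2 fold change was 0.06 (SE 0.0598, adjusted p = 0.386, edgeR) in KYSE30 and 0.04 (SE 0.0489, adjusted p = 0.453, edgeR) in U138MG, with 95% confidence intervals of -0.06 to 0.19 and -0.06 to 0.14. These values took a negative sign with library-size scaling in both lines and with upper-quartile scaling in U138MG.

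The head group transferases SGMS1 and UGCG both act on ceramide, and of their genes *UGCG* rose in both lines and *SGMS1* was not called. *SGMS2*, a further sphingomyelin synthase gene from the wider lists, was not called in KYSE30, at a log2 fold change of 0.15. It rose in U138MG, at 0.76 (SE 0.0712, adjusted p = 6.23e-10, edgeR), and the difference between the lines was called, at 0.57. *SGMS1* (ENSG00000198964, chr10:50305586-50625163, minus strand, GRCh38) had 15.8, 16.4 and 16.6 normalized CPM in KYSE30 DMSO libraries and 17.8, 16.2 and 16.0 in PTDSS1i. In U138MG it had 19.0, 19.5 and 17.3 normalized CPM in DMSO and 17.7, 18.2 and 18.3 in PTDSS1i. The groups overlapped in both lines, and the log2 fold changes were 0.04 (SE 0.0821, adjusted p = 0.718, edgeR) and -0.04 (SE 0.0784, adjusted p = 0.632, edgeR), with 95% confidence intervals of -0.13 to 0.21 and -0.20 to 0.12. The KYSE30 value was negative with library-size scaling, and the U138MG value was called lower with library-size scaling and with upper-quartile scaling, at -0.19 in both. *SGMS1-AS1*, which overlaps 3.22% of its exon bases, had log2 fold changes of -0.50 in KYSE30 and -1.76 in U138MG (adjusted p = 0.0156 and 1.5e-06, edgeR). With the counts of both genes summed, *SGMS1* was called lower in U138MG, at -0.17 (adjusted p = 0.0398, edgeR), and its KYSE30 value was negative.

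*UGCG* (ENSG00000148154, chr9:111896766-111935369, plus strand, GRCh38), the glucosylceramide synthase, had 128, 142 and 144 normalized CPM in KYSE30 DMSO libraries and 167, 163 and 179.9 in PTDSS1i. Its U138MG libraries had 67.0, 74.3 and 71.6 normalized CPM in DMSO and 135, 133 and 134 in PTDSS1i. All PTDSS1i libraries were above all DMSO libraries in each line. *UGCG* rose 1.23-fold in KYSE30, a log2 fold change of 0.30 (SE 0.0566, adjusted p = 9.41e-05, edgeR), and 1.89-fold in U138MG, a log2 fold change of 0.92 (SE 0.0415, adjusted p = 1.52e-17, edgeR). The U138MG rise was the largest of the 10 enzymes and exceeded that of KYSE30 by a log2 difference of 0.58 (SE 0.0715, adjusted p = 4.06e-08, edgeR).

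Across the 10 enzymes, the response differed between the lines for 5, namely *SPTLC3*, *CERS2*, *CERS5*, *CERS6* and *UGCG*, against 49.9% of the 18405 genes tested for this interaction. The response in U138MG was above that in KYSE30 for 3 of them, against 25.5% of genes, and below it for *SPTLC3* and *CERS6*, against 24.4%. For *SPTLC1*, *SPTLC2*, *KDSR*, *DEGS1* and *SGMS1* the difference was not called, and the confidence intervals of *DEGS1* (-0.22 to 0.10) and *SGMS1* (-0.35 to 0.11) spanned 0. Since line and batch are the same split, a difference in response between batches cannot be told apart from one between lines. In DMSO levels, compared within the fit of all 12 libraries, all 10 enzymes differed between the lines, against 85.1% of genes. Among the enzymes 6 were higher in U138MG against 41.0% of genes, and 4 were lower against 44.1%. *SPTLC2* was higher in U138MG by a log2 difference of 0.97, *CERS6* by 0.50, *CERS5* by 0.36 and *KDSR* by 0.22. *SPTLC3* was lower there by a log2 difference of -2.51, *SPTLC1* by -1.10, *UGCG* by -0.98 and *CERS2* by -0.71. The antisense genes *CERS6-AS1* and *CERS2-AS1* were almost without counts in KYSE30 and present in U138MG. The level differences of *CERS6* and *CERS2* therefore carry the limit on overlapping reads given above. The small excess of *DEGS1* and *SGMS1* in U138MG (0.12 and 0.18, adjusted p = 0.0461 and 0.0389, edgeR) was not called by DESeq2, without the low-count filter, or without DMSO replicate 1 or 2 of either line, and that of *DEGS1* was also lost without KYSE30 PTDSS1i replicate 3.

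The target of the inhibitor and its paralog, the other users of serine in lipid synthesis, were read alongside. *PTDSS1* had 177, 151 and 165 normalized CPM in KYSE30 DMSO libraries and 159.9, 154 and 164 in PTDSS1i, which overlapped, with a log2 fold change of -0.05 (SE 0.0565, adjusted p = 0.494, edgeR). In U138MG it had 96.4, 90.3 and 91.5 normalized CPM in DMSO and 70.2, 68.8 and 74.3 in PTDSS1i, and fell with a log2 fold change of -0.38 (SE 0.0437, adjusted p = 1.03e-08, edgeR). *PTDSS2* was not called, with log2 fold changes of 0.11 in KYSE30 and -0.05 in U138MG. In U138MG, *PTDSS1* transcript thus fell while *SPTLC1* and *SPTLC2* rose.

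The wider pathway was followed over 55 further genes in 7 lists. Of these, 49 were tested in KYSE30, of which 27 were higher, 10 lower and 12 not called, with a median log2 fold change of 0.24. In U138MG 51 were tested, of which 30 were higher, 12 lower and 9 not called, with a median of 0.30, beside -0.03 over all genes tested in each line. Over all genes tested, 30.1% were called higher and 32.0% lower in KYSE30 (62.0% in all), and 33.9% and 33.6% in U138MG (67.5% in all), and the counts of each list below stand beside these shares. *CERS3*, *ACER1*, *GALC* and *GAL3ST1* did not pass the low-count filter in either line, nor did *UGT8* and *ST8SIA1* in KYSE30. The genes of these lists were not refitted with other scalings, so calls with small fold changes may depend on the scaling.

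Among the 5 regulators of SPT, 3 rose and 1 fell in KYSE30, and 4 rose in U138MG. *SPTSSA*, a small subunit that activates SPT, rose in both lines, with log2 fold changes of 0.62 and 0.18. *SPTSSB*, its paralog, went from 0.724 ± 0.183 to 0.375 ± 0.155 normalized CPM in KYSE30, on 5 to 22 counts per library, and from 12.0 ± 2.21 to 18.7 ± 1.40 normalized CPM (mean ± SD, n = 3) in U138MG. Its log2 fold changes were -0.98 (SE 0.381, adjusted p = 0.0296, edgeR) and 0.65 (SE 0.108, adjusted p = 2.76e-05, edgeR), and the difference between the lines was 1.60 (SE 0.396, adjusted p = 0.00109, edgeR). Of the ORMDL proteins, which restrain SPT when ceramide is plentiful, *ORMDL2* rose by log2 values of 0.69 and 0.37 and *ORMDL3* by 0.31 and 0.15, and *ORMDL1* was not called in either line. The U138MG rises of *SPTSSA* and *ORMDL3* were close in size to the shift of -0.146 under other scalings in that line. Whether their calls hold with those scalings was not tested. Of the exon bases of *ORMDL2*, 46.4% overlap genes on the opposite strand.

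Of the 6 other ceramide-making enzymes tested, 3 rose in KYSE30, and 2 rose and 2 fell in U138MG. The list of ceramide transport and ceramide kinase held 3 genes that rose and 1 that fell in KYSE30, and 2 of each in U138MG. *CERT1*, the transfer protein that carries ceramide to the Golgi for sphingomyelin synthesis, rose from 33.8 ± 0.0814 to 67.3 ± 1.26 normalized CPM (mean ± SD, n = 3) in KYSE30 and from 45.3 ± 3.36 to 101 ± 5.41 normalized CPM (mean ± SD, n = 3) in U138MG. These were log2 fold changes of 0.995 (SE 0.0568, adjusted p = 1.65e-12, edgeR) and 1.16 (SE 0.0525, adjusted p = 1.05e-15, edgeR), and the difference between the lines was not called (adjusted p = 0.217, edgeR).

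Among other head group transferases, 3 of 7 tested rose and 2 fell in KYSE30, and 6 of 9 rose and 3 fell in U138MG. *B4GALT5* and *B4GALT6* both encode lactosylceramide synthases, which act directly on the product of UGCG. *B4GALT5* rose in both lines, with log2 fold changes of 1.11 (SE 0.0511, adjusted p = 4.83e-14, edgeR) in KYSE30 and 0.68 (SE 0.0341, adjusted p = 1.75e-16, edgeR) in U138MG. *B4GALT6* fell in KYSE30, at -1.20 (SE 0.155, adjusted p = 7.21e-07, edgeR), and rose in U138MG, at 0.63 (SE 0.120, adjusted p = 4.25e-05, edgeR), and the difference of 1.79 (SE 0.198, adjusted p = 4.45e-09, edgeR) was called. *B4GALNT1*, which makes GM2 and GD2 gangliosides, also fell in KYSE30 (-0.53) and rose in U138MG (0.39), with overlapping libraries in KYSE30. Of its exon bases, 26.7% overlap a gene on the opposite strand. In U138MG the ganglioside sialyltransferase genes *ST3GAL5* (-0.41) and *ST8SIA1* (-1.47) fell, and so did *UGT8* (-2.50), the galactosylceramide synthase gene. The counts of *UGT8* were 18, 27 and 21 in DMSO and 1, 5 and 6 in PTDSS1i. Those of *ST8SIA1* were 59, 53 and 63 and 20, 18 and 29.

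In the list of sphingomyelinases and ceramidases, 5 of 8 tested rose and 1 fell in KYSE30, and 5 rose and 2 fell in U138MG. *ACER2*, a Golgi ceramidase, rose in both lines, with log2 fold changes of 1.38 (SE 0.200, adjusted p = 0.000285, edgeR) and 1.02 (SE 0.164, adjusted p = 3.60e-06, edgeR). In U138MG the acid ceramidase gene *ASAH1* (1.09), the neutral ceramidase gene *ASAH2* (1.43) and the alkaline ceramidase gene *ACER3* (1.46) rose as well. In KYSE30, *ASAH1* (0.30) and *ACER3* (0.18) rose less and *ASAH2* was not called, and the difference between the lines was called for all 3. *SMPD1*, the acid sphingomyelinase gene, rose in KYSE30 from 8.43 ± 0.445 to 13.2 ± 1.10 normalized CPM (mean ± SD, n = 3). In U138MG it fell, with a log2 fold change of -2.41 (SE 0.595, adjusted p = 0.000801, edgeR), on only 9, 15 and 13 counts in DMSO and 4, 1 and 2 in PTDSS1i. *SMPD4*, a neutral sphingomyelinase gene, fell in both lines, by log2 values of -0.55 and -0.23.

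The list of glycosphingolipid breakdown, mostly lysosomal but with the non-lysosomal glucosylceramidase gene *GBA2* among the higher genes in both lines, had 6 of 11 tested genes higher and 3 lower in KYSE30, and 8 higher and 1 lower in U138MG. *NEU1*, the lysosomal sialidase gene, rose from 57.7 ± 2.96 to 189 ± 11.3 normalized CPM (mean ± SD, n = 3) in KYSE30 and from 25.7 ± 1.5 to 87.4 ± 3.45 normalized CPM (mean ± SD, n = 3) in U138MG. These were log2 fold changes of 1.71 (SE 0.0580, adjusted p = 3.22e-16, edgeR) and 1.77 (SE 0.0534, adjusted p = 9.67e-22, edgeR), 3.28-fold and 3.41-fold. *PSAP*, the precursor of the saposins, rose by log2 values of 0.70 and 1.16, and *ARSA*, the arylsulfatase that removes sulfate from sulfatide, by 1.03 and 0.26.

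In the metabolism and export of sphingosine 1-phosphate, 4 of 7 genes rose and 2 fell in KYSE30, and 3 rose and 2 fell in U138MG. *SGPP2*, a sphingosine 1-phosphate phosphatase gene, rose in both, with log2 fold changes of 1.39 (SE 0.144, adjusted p = 2.85e-08, edgeR) and 1.93 (SE 0.0741, adjusted p = 2.74e-19, edgeR). *SPHK1*, which encodes a sphingosine kinase, rose by log2 values of 0.30 in KYSE30 and 1.68 in U138MG, a difference of 1.35 (SE 0.140, adjusted p = 1.18e-09, edgeR). *SPNS2*, the exporter, rose in KYSE30 from 3.71 ± 0.451 to 9.64 ± 0.497 normalized CPM (mean ± SD, n = 3) and fell in U138MG from 42.2 ± 3.27 to 20.4 ± 1.25 normalized CPM (mean ± SD, n = 3). Its response differed between the lines by a log2 value of -2.47 (SE 0.138, adjusted p = 9.74e-16, edgeR). *ALDH3A2*, which oxidises the aldehyde left by sphingosine 1-phosphate breakdown, fell in KYSE30 (-0.37) and was not called in U138MG (-0.04).

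**Figure D4:**
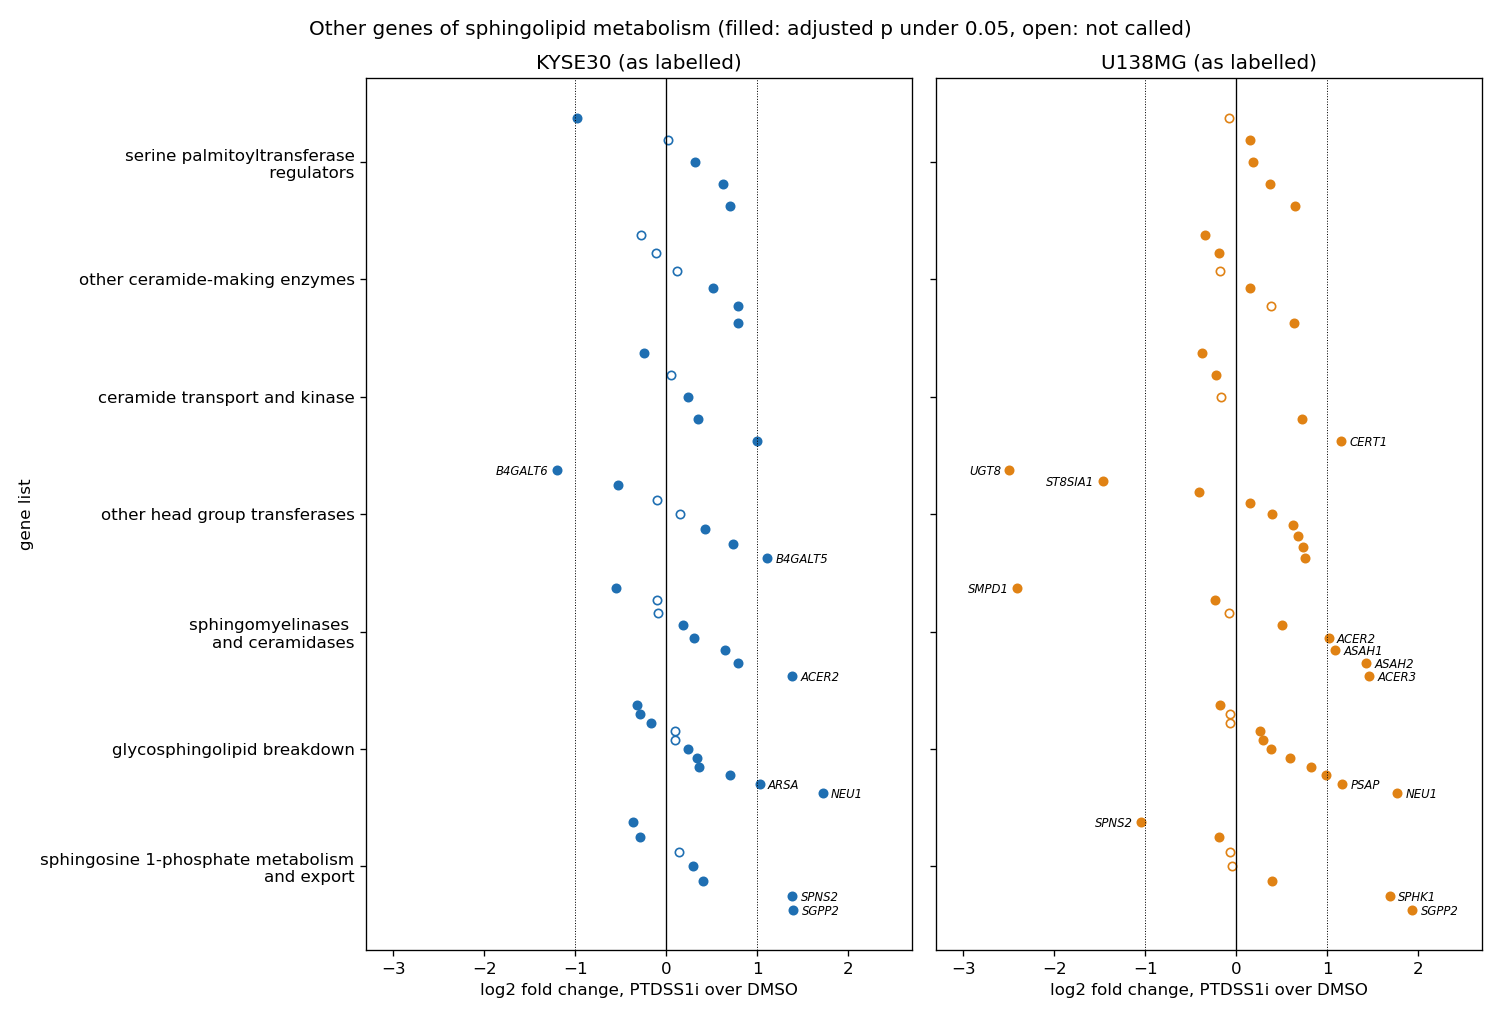
Log2 fold change of PTDSS1i over DMSO (horizontal axis) for each tested gene of the 7 further lists of sphingolipid metabolism, by labelled line, filled where the adjusted p was under 0.05 in edgeR's test, with dotted lines at -1 and 1. *NEU1* and *SGPP2* lie beyond 1 in both lines, whereas *SPNS2* lies at 1.38 in KYSE30 and -1.05 in U138MG.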

How the data were processed

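The values are counts as deposited by the authors, 1 table per line, in which each library has its own column of unnormalized reads per gene. The submitters' processing notes name Trimmomatic, STAR, featureCounts and hg38. Versions, annotation, strand use and a differential expression test for these libraries are not given in the sources used here. The labels give the TruSeq RNA Sample Prep Kit v2 with poly-A selection, and reads from a gene and an overlapping antisense gene cannot be told apart without strand. Exon lengths, positions and overlaps were taken from GENCODE v29 (GRCh38), which is not known to be the annotation of the counts. Promoters were taken from RefSeq (GRCh38.p14).

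The test was edgeR 4.0.16 under R 4.3.3, and DESeq2 1.42.0 was an alternative. Figures were drawn in Python 3.11.15 with matplotlib 3.10.9. Genes were kept by filterByExpr (minimum count 10, minimum total 15), leaving 16389 in KYSE30, 17666 in U138MG and 18405 in the fit of both lines. TMM scaling and the robust quasi-likelihood F test were used, with Benjamini-Hochberg adjustment over all genes and a threshold of 0.05. Normalized CPM uses TMM factors, and SE is the standard error of the log2 fold change. The response was compared between lines by the line-by-treatment interaction in all 12 libraries. DMSO levels were compared between lines within the same fit. This joint fit was scaled anew over the genes shared by both tables. Its differences are therefore not exactly those between the separate fits of each line. The biological coefficient of variation was 0.0549 in KYSE30 and 0.0451 in U138MG. The scripts were tested on simulated data. Intervals and floors cover counting error and the spread between these cultures only.

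The enzymes and gene lists were chosen with earlier results of these data known. Named were the 10 enzymes, *PTDSS1*, *PTDSS2*, the markers, and of the wider lists each gene called with an absolute log2 fold change over 1 in either line, with the 5 largest called rises and falls in each line. *ORMDL1*, *ORMDL2*, *ORMDL3*, *SPTSSA*, *CERS4*, *SGMS2*, *GBA2*, the genes that failed the filter and the genes overlapping enzymes were named in addition. Alternatives, read for the 10 enzymes only, were other scalings, DESeq2, other filters, a fit that was not robust and leaving out each library. A replicate block, a joint fit of the lines and a fold-change threshold were also used. Sums of *CERS2*, *CERS6* and *SGMS1* with their antisense partners were added after the data were seen.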

Additional observations from a re-analysis of the deposited data

Results flagged for a closer look

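The response to PTDSS1i differed between the lines, by the interaction test of edgeR, for 5 of the 10 enzymes, beside 49.9% of all 18405 genes tested. In the joint fit of both lines, which has its own scaling, the log2 difference (U138MG minus KYSE30) was -1.35 for *SPTLC3* and 0.29 for *CERS2*. It was 0.38 for *CERS5*, -1.05 for *CERS6* and 0.58 for *UGCG*. For *CERS6* the 3 PTDSS1i libraries lay above DMSO in KYSE30 and below it in U138MG. For *SPTLC3* the libraries moved down in both lines, and for *UGCG* up in both. Batch and line are the same split in these libraries, and the libraries labelled U138MG carried squamous markers, so these differences cannot be assigned to the named lines.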

How the results depend on the processing

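The total of enzymes called was within 1.5 times its value in the main design under every scaling, filter, tool and left-out library tried, apart from the fold change threshold below. With library size only, 2 enzymes were called lower in KYSE30, since *CERS5* joined *SPTLC3*. With a log2 fold change beyond 1 required, the counts were 0 higher and 0 lower in KYSE30 (0 in all) and 0 higher and 1 lower in U138MG (1 in all). Leaving out 1 library gave 6 to 7 enzymes called in KYSE30, 8 in each case in U138MG, 5 in each case for the difference between the lines and 8 to 10 for the DMSO level. Directions changed only for small values. With library size only, *DEGS1* was -0.0440 in KYSE30 and -0.104 in U138MG and *SGMS1* was -0.06915 in KYSE30. With upper-quartile scaling, *DEGS1* was -0.103 in U138MG, and the differences between the lines were -0.0920 for *SPTLC2* and -0.0138 for *KDSR*. Summed with its antisense partner *SGMS1* was -0.0509 in KYSE30, where leaving out single libraries gave -0.0119 (without PTDSS1i replicate 1) to 0.0725. The difference for *SPTLC2* was -0.0171 with 10 counts required in every library, and between -0.0328 and 0.0433 with each library left out. Same-numbered libraries deviated together weakly at most, with correlations from -0.00288 to 0.0754, so the replicate numbers were not taken as pairs. In KYSE30 each DMSO library correlated best with its own number, and in U138MG not all did. With a replicate block, 7 enzymes were called in KYSE30, *CERS2* being added at 0.10 (adjusted p = 0.037, edgeR), 8 in U138MG and 5 for the difference, and over all genes the calls were 10458 against 10165 in KYSE30, 11940 against 11917 in U138MG and 9439 against 9188 for the difference. In all, 636 values of single enzymes kept their direction and side of the threshold, 13 reversed, 8 gained a call and 13 lost one. Depth limits *SPTLC3* in U138MG, at 12 to 85 counts per library.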
